A study of Mus musculus with 25 samples.

Results

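A set of 32 probes was highest in injured lung regions in both tissue compartments that were profiled, the CD68 segments and the non-immune segments. The 32 members were 1.97% of the 1627 probes that could have been chosen, out of 20175 probes in all. They were chosen by their measured levels in all of the segments described here. For the choice, the counts of all segments of a compartment and a region class (healthy, peri-injured or injured) were pooled and scaled to counts per 1000000 counts (CPM), and the level of a probe was taken as log2(CPM + 20). Eligible probes had at least 60 counts over the CD68 segments and a mean level that differed by at most 0.7 between the compartments. A probe became a member where injured regions exceeded peri-injured regions and healthy regions by at least 0.3 on this scale in each compartment. The smallest of these 4 differences is called m here. The rule allowed up to 60 members, and 32 reached the threshold.

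Surfactant protein C is made by alveolar type II cells, and its I73T mutant form is misprocessed and injures these cells. Lung macrophages gather where the epithelium is injured, and they clear debris and exchange signals with epithelial cells and fibroblasts during repair and scarring. The CD68 segment of a region holds CD45+CD68+ cells, taken as macrophages by the study, and the non-immune segment holds the DNA-positive area without CD45.

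All samples were from male SP-CI73T mutant mice. Healthy regions 1, 3 and 13 came from 1 control mouse that received corn oil, labelled untreated and day 0. Peri-injured regions 6, 9, 10 and 12 and injured regions 4, 5, 7, 8 and 11 came from 1 mouse at day 14 after tamoxifen, which removes a cassette and raises expression of the mutant. The labels give 1 gavage of 175 mg/kg, while the methods of the study describe another schedule. Each region gave 1 CD68 and 1 non-immune segment, 24 segments in all. Regions of a class are therefore samples of the same animal, so that p-values over regions do not measure the spread between animals and are too small for that use. In comparisons with healthy regions, region class and mouse cannot be told apart. The segment annotation of the study lists injured region 4 with the control lung by tissue number and with the injured lung by class and treatment, and the sample labels place it among the injured regions, as was done here.

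Total counts ranged from 21955 to 119493 in CD68 segments and from 80259 to 671249 in non-immune segments. A member had between 60 and 636 counts over the 12 CD68 segments, so that single CD68 values rest on few counts, and 8 members had no count in peri-injured region 9, the shallowest segment. Probes are listed by identifier. The sources used here do not pair the identifiers with genes or sequences, so no gene, pathway or sequence is given for a member, and the CD68 label could not be checked against macrophage genes. In a segment, more RNA per cell and more cells of the type that carries it cannot be told apart.

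Summed over the 32 members, injured segments lay above all others in both compartments. In CD68 segments, the summed level was 8278, 9206, 7769, 8094 and 7094 CPM in injured regions 4, 5, 7, 8 and 11. Peri-injured CD68 segments 6, 9, 10 and 12 were at 4414, 4054, 4100 and 4179, and healthy segments 1, 3 and 13 at 4836, 3934 and 4762. The classes of injured and other segments did not overlap, which follows from the choice of members and was not tested. In non-immune segments, injured regions 4, 5, 7, 8 and 11 were at 7508, 7863, 6762, 7729 and 6832 CPM. Peri-injured non-immune segments were between 4341 and 4643, and healthy ones between 4151 and 5246. The ratio of class means, injured to peri-injured, was 1.93 in CD68 and 1.64 in non-immune segments, and injured to healthy 1.79 and 1.55. Members took between 0.71% and 0.92% of the counts of an injured CD68 segment, and between 0.39% and 0.48% of those of the other CD68 segments. Leaving out the 3 members with the highest m, the ratios of means against peri-injured regions were 1.73 and 1.48, and against healthy regions 1.503 and 1.40.

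**Figure D1:**
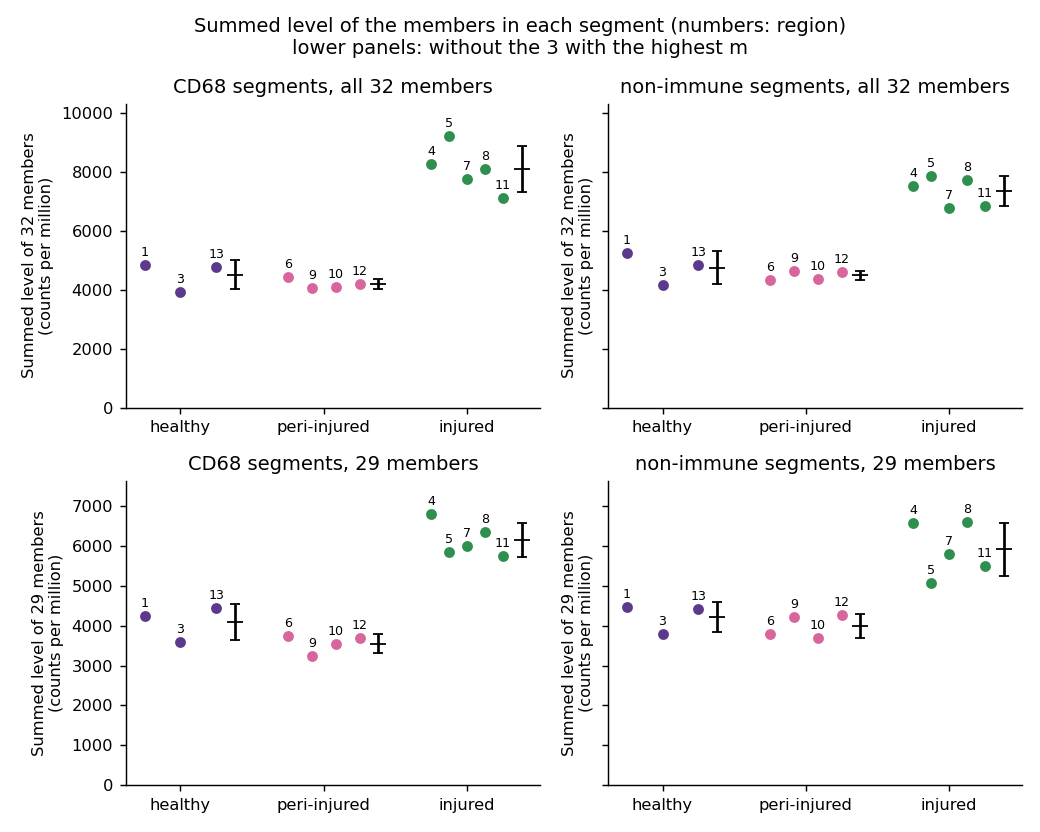
Summed level of the members in CPM (vertical axis) in each segment of the 3 region classes, for CD68 segments (left) and non-immune segments (right). Points are segments with their region number, and the black mark is the class mean ± SD. Injured segments lie above all healthy and peri-injured ones with all 32 members (upper panels, lowest injured value 6762) and with the 29 that remain without the 3 of highest m (lower panels).

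On the CPM scale of the rule, the pattern was rare among eligible probes. At least 0.3 was reached by 293 of 1627 probes for injured minus peri-injured regions in CD68 segments and by 346 for injured minus healthy regions, with 210 and 278 in non-immune segments. Of these, 112 probes (6.88%) met both in CD68 segments, 106 (6.52%) met both in non-immune segments, and the 32 members met all 4. The median eligible probe was not higher in injured regions on this scale, with differences of -0.30 and -0.11 in CD68 and -0.17 and -0.00 in non-immune segments. The medians over members, which the rule sets, were 0.61 and 0.62 in CD68 and 0.48 and 0.45 in non-immune segments. With upper-quartile normalization, the median log2 fold change over the 1882 probes with at least 60 CD68 counts was above 0. Against peri-injured and healthy regions it was 0.20 and 0.14 in CD68 and 0.25 and 0.14 in non-immune segments. Under upper-quartile scaling the rule chose 60 probes, its maximum, so that how rare the pattern was depended on the scaling.

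Members were uneven in size. Only RTS0075359 (m = 2.21) and RTS0076055 (m = 1.30) had an m above 1, the third member, RTS0067336, had an m of 0.59, and the other 29 lay between 0.30 and 0.52. The difference from peri-injured regions was larger in CD68 than in non-immune segments for 28 of 32 members, and the difference from healthy regions for 26. Large CD68 differences were also more frequent over all eligible probes, on fewer counts. A difference of at least 1 from peri-injured regions was reached by 28 of 1627 in CD68 and by 4 in non-immune segments. From healthy regions it was reached by 38 and 11. The order of the compartments was not tested. The non-immune segments held the smallest of the 4 differences for 24 members, against healthy regions for 15 and against peri-injured regions for 9. CD68 segments set m for the other 8, against healthy regions for 6 and against peri-injured regions for 2. Near the threshold, RTS0074983 (m = 0.306) and RTS0061785 (m = 0.304) were the last members, and RTS0067541 (0.297) and RTS0064052 (0.294) were the first probes left out. The pair outside was far more abundant than the pair inside, with 903 and 3049 CD68 counts against 61 and 142.

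**Figure D2:**
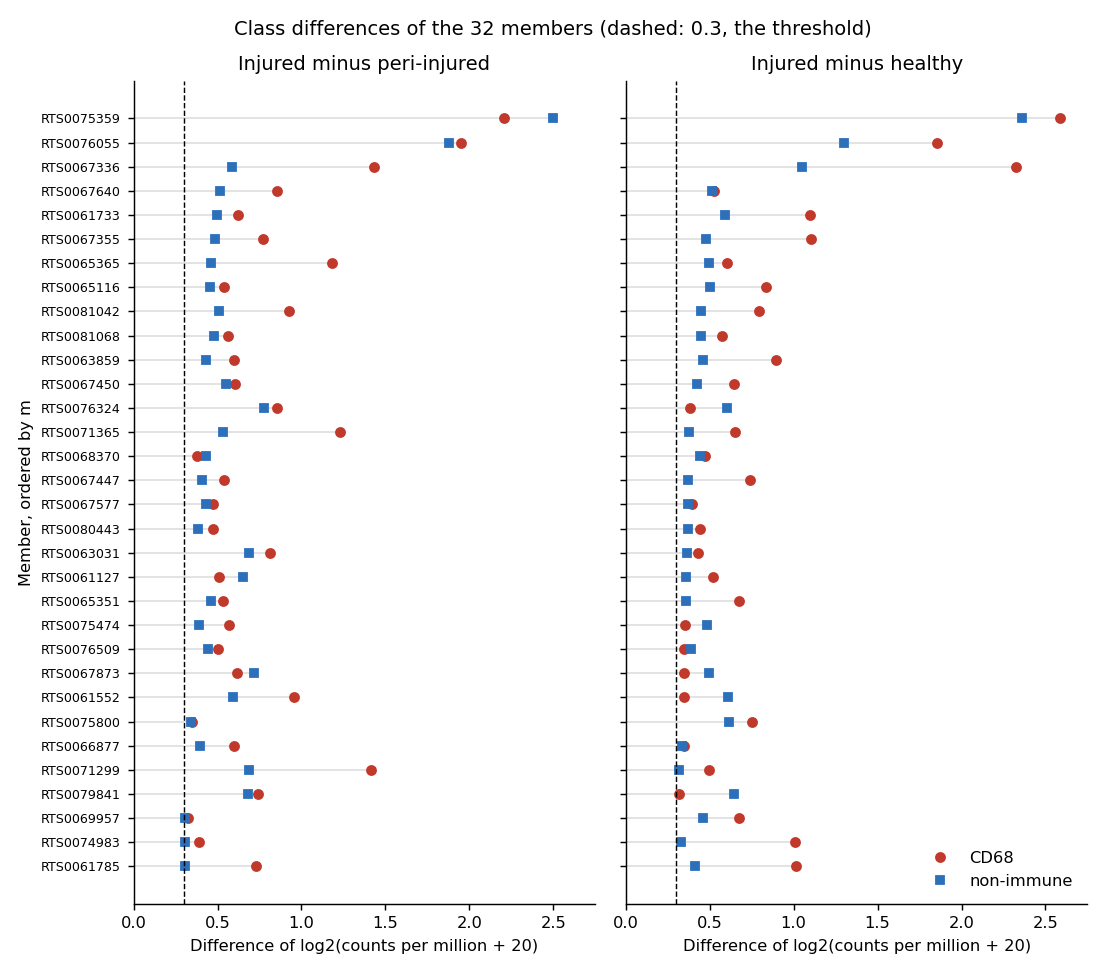
Differences of log2(CPM + 20), injured minus peri-injured (left) and injured minus healthy (right), for each of the 32 members in CD68 (circles) and non-immune segments (squares), in order of m. The dashed line is the threshold of 0.3. RTS0075359, RTS0076055 and RTS0067336 at the top reach up to 2.59, and no m below them exceeds 0.52.

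RTS0075359 had few counts outside injured regions. In healthy CD68 segments of regions 1, 3 and 13 it had 22.9, 17.8 and 0 CPM, and in peri-injured ones of regions 6, 9, 10 and 12 it had 32.1, 0, 33.5 and 0, each from at most 3 counts. At the depth of regions 9, 12 and 13, a count of 0 allows up to 137, 90.9 and 83.5 CPM (3 counts). Injured CD68 segments were at 67.5, 393, 202, 83.6 and 83.2 in regions 4, 5, 7, 8 and 11. Every injured value exceeded every other one in this compartment, and region 5 was the highest. Non-immune segments were likewise highest in injured regions, with 12.5 to 24.5 CPM in healthy, 17.9 to 19.9 in peri-injured and 97.4, 500, 141, 76.3 and 213 in injured regions 4, 5, 7, 8 and 11. From pooled counts, the injured to peri-injured ratio was 7.49 in CD68 segments (exact 95% interval 3.30 to 21.0) and 10.6 in non-immune segments (7.40 to 15.7). Against healthy regions the ratio was 12.8 in CD68 segments (3.43 to 108, on 2 healthy counts) and 8.83 in non-immune segments (5.00 to 17.2). These intervals cover counting error only.

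RTS0076055 showed the same lead of region 5. Injured CD68 segments had 243, 1364, 324, 613 and 523 CPM in regions 4, 5, 7, 8 and 11, and the non-immune segments of the same regions had 295, 1468, 262, 587 and 564. Peri-injured segments were at 137 to 192 in CD68 and 49.7 to 218 in non-immune tissue, all below the injured ones. Healthy segments overlapped with injured ones, since healthy region 1 had 321 in its CD68 and 436 in its non-immune segment, while the other healthy segments had between 71.2 and 167. Leaving out region 5 lowered m from 1.30 to 0.84 for RTS0076055 and from 2.21 to 1.51 for RTS0075359. For RTS0076055 the healthy regions mattered as much, with an m of 0.79 without healthy region 3 and of 1.88 without healthy region 1.

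RTS0067336 separated the classes without such a lead in CD68 segments. Healthy CD68 segments were at 252, 249 and 139 CPM, peri-injured ones at 449, 683, 380 and 333, and injured ones at 1148, 1598, 1241, 1031 and 737 (regions in ascending order). In CD68 segments the 3 classes did not overlap at all, with peri-injured between healthy and injured. The healthy values rest on 11, 14 and 5 counts. All peri-injured CD68 segments lay above all healthy ones for 1 of 32 members and for 13.8% of the 1882 probes tested. Non-immune segments of RTS0067336 were at 221 to 313 in healthy, 253 to 422 in peri-injured and 466 to 811 in injured regions, so that here healthy and peri-injured overlapped. In every injured region, its CD68 segment was above its non-immune segment.

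**Figure D3:**
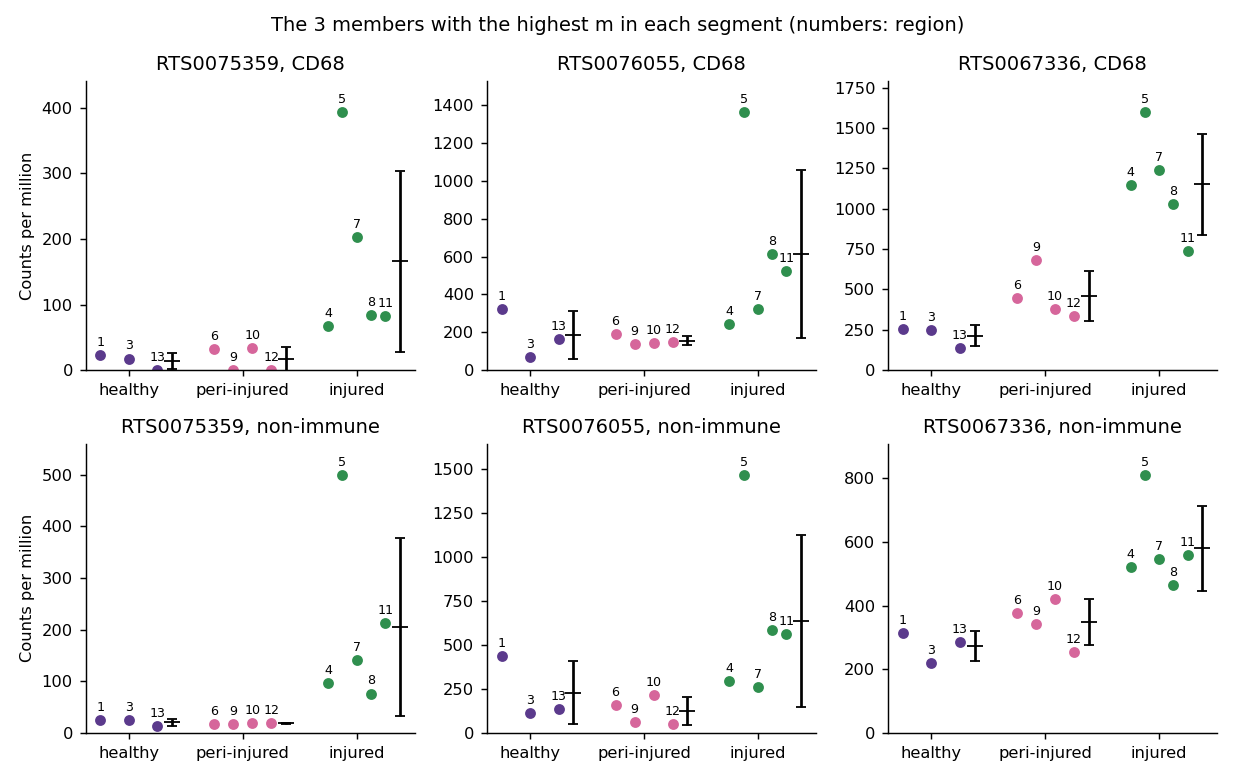
CPM (vertical axes, each panel on its own scale) of RTS0075359, RTS0076055 and RTS0067336 in each CD68 segment (upper row) and non-immune segment (lower row), by region class. Points carry the region number and black marks are class means ± SD. Region 5 is the highest segment in all 6 panels, and healthy region 1 reaches into the injured range for RTS0076055.

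Differences were smaller for the other members, and more of their segments overlapped. RTS0067355, for example, was between 178 and 311 CPM in injured CD68 segments, 78.2 and 171 in peri-injured and 68.8 and 139 in healthy ones. In non-immune segments it was between 137 and 222 in injured, 125 and 175 in peri-injured and 127 and 141 in healthy regions. Its injured segments lay above all others in CD68 but not in non-immune tissue. At the edge of the set, RTS0074983 ranged from 23.8 to 135 in injured CD68 segments, from 45.5 to 121 in peri-injured and from 0 to 71.2 in healthy ones, with overlap between all classes. The CD68 difference of RTS0061733 rested on region 5, which had 259 CPM and 72.1% of its injured CD68 counts, while injured regions 4, 7, 8 and 11 had 81.0, 40.5, 13.9 and 23.8. Without region 5, its CD68 level in injured regions was below that in peri-injured ones by 0.41 and its m was -0.41.

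Counted over members, all injured CD68 segments lay above all peri-injured ones for 12 of 32 members (2.92% of the 1882 probes tested) and above all healthy ones for 8 (3.19%). In non-immune segments the counts were 12 (4.25%) and 14 (5.84%). Injured segments lay above all others for 3 members in CD68 segments (0.478%) and for 8 in non-immune segments (1.17%). RTS0075359 and RTS0067336 did so in both compartments and were the only members to do so. The rule used these contrasts, so the counts describe the members and support nothing. The same holds for edgeR's quasi-likelihood test with upper-quartile normalization over 1882 probes at a Benjamini-Hochberg adjusted p under 0.05. It called 28 of 32 members higher in injured than in peri-injured CD68 segments (11.8% of all probes) and 32 in non-immune segments (32.7%). Against healthy regions it called 4 members higher in CD68 (1.28%) and 2 in non-immune segments (1.91%).

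Injured regions did not rank alike for all members. By CPM, the highest injured CD68 segment was that of region 4 for 11 members, of region 8 for 7, of regions 5 and 11 for 5 each and of region 7 for 4. Among non-immune segments it was that of region 8 for 11 members, of region 4 for 10, of regions 5 and 7 for 5 each and of region 11 for 1. Region 5, the highest injured region for RTS0075359, RTS0076055 and RTS0067336 in both compartments, was thus the highest for few members. For 14 of 32 members (43.8%) the highest injured region was the same in both compartments, against 24.9% of the 1627 eligible probes. Among peri-injured regions this share was 18.8% of members and 29.3% of eligible probes, and among healthy regions 34.4% and 35.4%. These shares are descriptions, and the segments of a region share their place and slide.

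Members were more abundant than the median probe, as the count minimum requires for CD68 segments. Pooled over all segments they ranged from 75.2 to 798 CPM in CD68 segments (median 110) and from 48.2 to 663 in non-immune segments (median 127), where the median of all 20175 probes was 37.6 and 37.3 and that of the eligible ones 95.3 and 98.3. The minimum of 60 CD68 counts is 75.2 CPM, 2 times the CD68 median of all probes, so that the rule itself sets this lower limit. Outside injured regions, a member had between 8 and 203 CD68 counts in all (median 32.5).

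The difference between peri-injured and healthy lung was not itself part of the rule, but the levels of both classes were, since a member had to be below its injured level in each. The following values therefore describe the members and support nothing. In CD68 segments, the mean summed level was 4187 ± 160 CPM in peri-injured (SD, n = 4) and 4511 ± 501 in healthy regions (n = 3). In non-immune segments it was 4485 ± 157 and 4748 ± 554. The ranges overlapped in both compartments, and the ratio of means was 0.928 and 0.945. EdgeR's quasi-likelihood test, in 1 fit over the 12 segments of a compartment, called 0 of 32 members in CD68 segments (3.77% of all 1882 probes called) and 0 of 32 in non-immune segments (8.34%). With TMM factors, total counts alone, DESeq2 and limma, 0 members were likewise called in each compartment. The difference between the compartments in this contrast, tested as an interaction over 24 segments, was called for 0 members (0.372% of all probes), and for 0 by DESeq2. A median SE of 0.58 (log2) in CD68 and 0.28 in non-immune segments limits what could be detected, and a missed threshold does not show that the levels were equal.

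The direction of this contrast depended on the scaling. With upper-quartile normalization the median log2 fold change of members, peri-injured against healthy, was -0.38 in CD68 segments (24 of 32 below 0), where that of all probes was -0.11. In non-immune segments it was -0.30 (31 below 0) and -0.14 for all probes. Of all probes, 43.8% lay above 0 in CD68 and 37.0% in non-immune segments. With total counts alone, the medians of members were -0.01 and 0.00 and those of all probes 0.26 and 0.16. Relative to the median of all probes, members were lower under both scalings. Without a filter on low counts, where all 20175 probes enter, the medians of members were 0.26 and 0.13 and lay above that of all probes by 0.16 and 0.14.

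RTS0067336, which stood between the other classes in peri-injured CD68 segments, had a log2 fold change of 0.63 ± 0.37 (SE) against healthy regions there and of 0.08 ± 0.22 in non-immune segments, and neither was called.

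**Figure D4:**
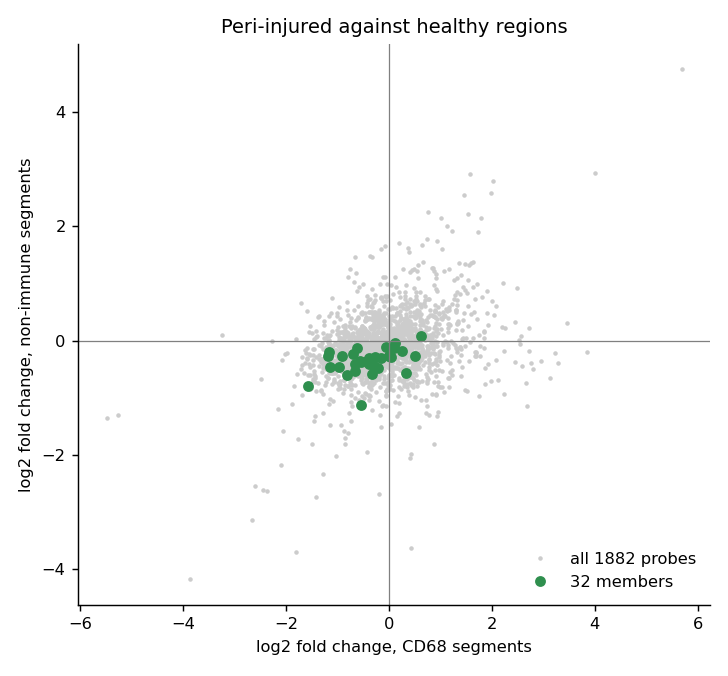
Log2 fold change of peri-injured against healthy regions by edgeR in CD68 segments (horizontal) and non-immune segments (vertical), for all 1882 probes tested (grey) and the 32 members (green). Members lie within the cloud of all probes, and none was called in either compartment. On the upper-quartile scale, 24 of 32 lie below 0 in CD68 and 31 in non-immune segments. Of all probes, 43.8% and 37.0% lie above 0 there. With total counts alone, 15 and 16 members lie above 0.

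Probes chosen in a single compartment were read in the other. The same rule was applied to the non-immune segments alone (still with the CD68 count minimum and the compartment window), and the 60 probes of highest m were read in CD68 segments. The differences between CD68 classes did not enter this choice, but the CD68 count minimum did, and a probe can pass it through injured segments, since 46.9% of all CD68 counts lay outside them. Both segments of a region share a mouse and a place. Of the 60 probes, 41 were called higher and 0 lower in injured than in peri-injured CD68 segments by edgeR's test, against 11.8% and 6.38% of all 1882 probes. Their median log2 fold change was 1.30, where that of all probes was 0.20, with 57 of 60 above 0 (60.1% of all probes). Against healthy regions, 4 of 60 were called higher (1.28% of all probes) and 0 lower (1.7%), and the median was 0.59 against 0.14 for all probes. The comparisons with peri-injured and healthy regions share the injured segments. Chosen again among probes that also had 30 or more CD68 counts outside injured segments (a setting added after seeing the data), 60 probes gave 39 and 3 calls, all higher, with medians of 1.19 and 0.44. The minimum of 60 counts in all still held there, so that its part was reduced and not removed.

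In reverse, 60 probes were chosen in CD68 segments alone and read in non-immune segments. Of these, 47 were called higher and 0 lower in injured than in peri-injured regions, against 32.7% and 13.2% of all probes, with a median of 0.86 and of 0.25 for all. Against healthy regions 4 were called higher (1.91% of all probes) and 1 lower (4.41%), with a median of 0.43 and of 0.14 for all. The 2 lists shared 14 probes, 23.3% of each. Members were 22 of the non-immune list and 19 of the CD68 list.

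RTS0075359 had the largest fold changes in these lists. It had 80 of its 88 CD68 counts in injured segments and so passed the count minimum through them, and the choice of the members used these contrasts in both compartments, so their values are descriptions without p. Its log2 fold change was 3.35 ± 0.62 (SE) against peri-injured and 3.69 ± 0.84 against healthy CD68 segments. In non-immune segments it was 3.80 ± 0.42 and 3.24 ± 0.58. RTS0076055 was next against peri-injured regions, with 2.58 ± 0.43 in CD68 and 2.64 ± 0.44 in non-immune segments, and RTS0067336 was next against healthy CD68 segments, with 2.68 ± 0.34. In non-immune segments against healthy regions, RTS0076055 was at 1.51 ± 0.49 and RTS0067336 at 1.22 ± 0.22. With region 5 left out, RTS0075359 was at 2.69 and 3.03 in CD68 segments. Among the probes called in CD68 segments, RTS0081549 (0.84 ± 0.26) and RTS0075557 (1.02 ± 0.24) had the smallest difference from peri-injured regions. By CPM, their ratios of class means were only 1.13 and 1.27, and injured and peri-injured segments overlapped for both. For RTS0081549, injured CD68 segments were at 368 to 527 CPM and peri-injured ones at 279 to 534. RTS0067355 (1.55 ± 0.42) and RTS0076055 (2.04 ± 0.49) had the smallest difference from healthy ones. All 4 probes called there were members, whose choice used this contrast. In non-immune segments, the smallest differences were those of RTS0075419 (0.56 ± 0.22) and RTS0070588 (0.64 ± 0.15) against peri-injured regions, and RTS0070220 (0.72 ± 0.21) among the probes higher than in healthy regions. By CPM, RTS0075419 and RTS0070588 had ratios of class means of 1.14 and 1.16 there, and their injured and peri-injured segments overlapped too. RTS0064050 was called lower in injured than in healthy non-immune segments (-1.07 ± 0.32, adjusted p of 0.0496 in edgeR's test), and its healthy values were 480 CPM in region 1, 128 in region 3 and 87.2 in region 13, with 94.0 to 127 in injured regions. Apart from healthy region 1, its healthy values lay within or next to the injured range.

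The calls against peri-injured regions moved with the scaling, which shifts all probes together. The median log2 fold change of all probes, injured against peri-injured CD68 segments, was 0.20 with upper-quartile factors, 0.01 with TMM factors and -0.45 with total counts alone. Over all probes, 223 were called higher and 120 lower in the first case, 141 and 179 in the second and 40 and 429 in the third. Of the 60 probes chosen in non-immune segments, 41, 34 and 13 were called higher, while their median relative to all probes was 1.10, 1.10 and 1.09. In non-immune segments, the calls over all probes were 615 higher and 248 lower, 332 and 374, and 128 and 537. Of the 60 probes chosen in CD68 segments, 47, 41 and 21 were called higher there. Without region 4, whose annotation is in doubt, the list chosen in non-immune segments gave 33 calls against peri-injured and 3 against healthy CD68 segments, the list chosen in CD68 segments gave 50 and 3 in non-immune segments, and the rule kept 18 of the 32 members. The lists were chosen anew in each round that left out a region, so that the list and the fit moved together. In the same rounds, the few calls against healthy regions moved too. In place of 4 calls in CD68 segments, 2 were made without healthy region 1, and 1 was made when healthy region 3 or 13 or injured region 5 was left out. In place of 5 calls in non-immune segments, 14 were made without injured region 5, 2 without healthy region 3 or 13, and 3 without injured region 4 or any peri-injured region.

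**Figure D5:**
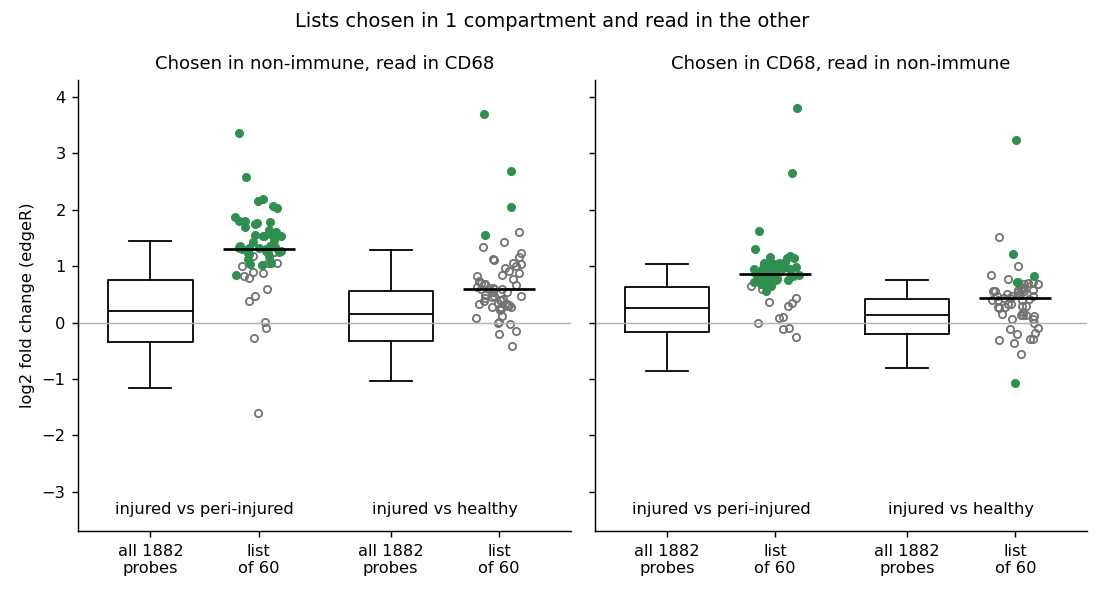
Log2 fold changes by edgeR for all 1882 probes (boxes with median and quartiles, whiskers from the 5th to the 95th percentile) and for 60 probes chosen in the other compartment (points, filled where the adjusted p is under 0.05, with a line at their median), in CD68 segments (left) and non-immune segments (right). Against peri-injured regions the list medians are 1.30 and 0.86, above the box medians of 0.20 and 0.25, and against healthy regions 0.59 and 0.43.

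Injured regions left out of the choice were read in the same way. With each injured region left out in turn, the rule chose between 19 and 31 probes from the other 11 regions, and these were then read in the region left out, on the log2 scale of the rule. Their median difference was between 0.39 and 0.69 against peri-injured and 0.17 and 0.61 against healthy CD68 segments, where eligible probes had medians from -0.61 to -0.39 and from -0.30 to -0.12. In non-immune segments it was between 0.29 and 0.55 and between 0.24 and 0.53, where eligible probes had medians from -0.36 to -0.11 and from -0.15 to 0.09. The healthy and peri-injured segments were the same in the choice and in the reading. Probes were chosen for low values in them, which by itself favours a difference above 0, and eligible probes were not chosen in this way. These medians are therefore descriptions and support nothing. RTS0067336, RTS0067355, RTS0067640 and RTS0076055 were chosen in all 12 rounds that left out 1 region of any class, and 8 members were chosen in 6 or fewer.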

How the data were processed

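GeoMx Mouse Whole Transcriptome Atlas probes were read in 24 segments, a CD68 and a non-immune segment in each of 12 regions from 2 mice. The authors deposited whole-number counts for each probe, made from the reads with the NGS Pipeline of GeoMx after removal of duplicates by unique molecular identifier. The count files name version 2.3.4 and the metadata sheet 2.3.5. The counts are not normalized, and a probe without an entry was read as 0. The reaction without template and the authors' worksheet and metadata sheet were not used. Filtering on a limit of quantitation was not repeated, since negative control probes are not marked.

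The members and lists were chosen with earlier results of these data known. The 1882 probes with at least 60 CD68 counts entered edgeR 4.0.16 (R 4.3.3) and its quasi-likelihood test, with upper-quartile normalization, a term per region class and Benjamini-Hochberg adjustment over all probes tested, called at an adjusted p under 0.05. The authors used Q3 normalization and a mixed model, and each region holds 1 segment per compartment, so no random effect was fitted. The SE was derived from the log2 fold change and the F statistic (absolute value over root F). Ratios of pooled counts have exact binomial 95% intervals. Alternatives were TMM, total counts alone, DESeq2 1.42.0, limma 3.58.1, other count filters, thinning to the shallowest segment, other settings of the rule and leaving out each region. The test of peri-injured against healthy regions was run on simulated counts of 1882 probes, 200 of them changed by 2-fold or 4-fold. In CD68 segments it recovered 9.33% of 2-fold and 64% of 4-fold changes, and in non-immune segments 70.3% and 99%. The mean number of unchanged probes called was 3.33 and 11. The simulated counts were drawn independently for each segment, with the changed probes as the only difference between classes and no difference between mice. These rates therefore do not measure what the test recovers or wrongly calls in the real data. Plots were drawn with matplotlib 3.10.9.

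Named probes were the 2 members of highest and lowest m, the 2 probes next below, the 2 called probes of highest and of lowest log2 fold change in each test, and the members with the largest share of injured counts in 1 segment. Others are marked or serve as examples chosen after their values were seen (RTS0067336 as the next by m, and those in every round of the rule). Region numbers pair the segments, since each pair was cut from 1 place. Their deviations from class means correlated between 0.024 and 0.236 over 12 pairs (median 0.100), with 6 above 0.1.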

Additional observations from a re-analysis of the deposited data

Results flagged for a closer look

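Among 40 groups of 4 or 5 segments of 1 class, 6 values lay far from the rest of their group by Dixon's test. The groups were of summed levels, total counts and named members, and the members were named by their values. The usual rate of about 1 of 20 groups by chance therefore does not apply. RTS0061733 was named for its share of injured CD68 counts in 1 segment, so that its CD68 value in region 5 follows from that choice. The total of 119493 counts in the CD68 segment of injured region 5 was above the 71786 to 84152 of the other injured CD68 segments. RTS0061733 had 259 CPM in the CD68 segment of injured region 5, where the others had 13.9 to 81.0, and 90.7 in the non-immune segment of injured region 4, where the others had 53.2 to 59.98. RTS0067336 had 811 CPM in the non-immune segment of injured region 5, with the others at 466 to 558. RTS0076055 had 1468 there, with the others at 262 to 587. RTS0067355 had 175 CPM in the non-immune segment of peri-injured region 9, with the others at 125 to 129. Region 5 thus held 4 of the 6 values, among them the RTS0061733 value that follows from its naming. The part of region 5 in the results was described by leaving it out, not tested.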

How the results depend on the processing

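Membership depended on the settings of the rule. Of the 32 members, 12 were kept with a minimum of 30 counts (60 chosen), 15 with a minimum of 120 counts (which leaves fewer probes) and 4 with segments thinned to the shallowest total (6 chosen, on fewer counts). Other pseudocounts, windows, equal weights per segment and upper-quartile scaling kept 23 to 32, and leaving out 1 region kept 14 (without healthy region 3) to 30. Upper-quartile scaling chose 60 probes in all, the most that the rule allows. Calls on the lists, read in the other compartment, were as follows, with the lists chosen anew after thinning and with each region left out. For the non-immune list in CD68 segments against peri-injured regions (41 calls), there were 14 with total counts alone (13 of them higher), 27 with DESeq2, 10 with limma and 12 of the 24 probes tested after thinning, and 32 to 48 with 1 region left out. Against healthy regions (4 calls) there were 2 with each of these 4, and 1 to 4 with 1 region left out. For the CD68 list in non-immune segments against peri-injured regions (47 calls), there were 23 with total counts alone (21 of them higher), 13 with limma and 10 of 18 after thinning, and 45 to 57 with 1 region left out. Against healthy regions (5 calls) there were 3 with DESeq2 and 1 after thinning, and 2 to 14 with 1 region left out. The cause was not tested. List medians relative to all probes stayed above 0 in every alternative run. For peri-injured against healthy regions, 0 members were called under every alternative and with each region left out, among 32 tested in each case but 15 in CD68 segments under filterByExpr. With the region as a replicate block, the interaction called 0 members and 20 of all 1882 probes, against 7 without the block. The block was fitted for the interaction alone, since each compartment has 1 segment per region. A minimum of 30 CD68 counts outside injured segments, added after seeing the data, left 39 and 3 calls for the non-immune list in CD68 segments. At 21955 counts in the shallowest CD68 segment, a single count is a large part of most CD68 values.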
